A study of Sus scrofa with 6 samples.

Results

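CD36, APOE, PPARG, SCD and LIPE are genes of lipid uptake, lipid transport and the adipogenic programme, and their RNA levels were followed in 6 primary cultures of porcine bone marrow mesenchymal stem cells. Each of the 5 genes was represented by the probe set that carried its symbol alone in the platform annotation, and each had only 1 such probe set. These are 5 of 10872 named genes on the array. The 3 mandibular cultures came from marrow aspirated at the symphysis of the lower jaw, and the 3 tibial cultures came from marrow of the tibia. All were untreated cultures at passage 0, grown to 80% confluence, from female American Yorkshire pigs 4 months of age. Both marrows were taken from 3 pigs, per the design text, without a statement of which cultures share an animal. Marrow was plated whole on plastic, so the cultures could hold other adherent cells beside the stromal cells, and each culture was measured as a bulk RNA. Each value is a log2 level after RMA normalization on a microarray, and differences are given as mandibular minus tibial.

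Marrow stromal cells can become osteoblasts, chondrocytes or adipocytes. The nuclear receptor PPARG is the master regulator of the adipocyte fate, and it switches on genes that take up, make and store fat. Several of the same genes serve macrophages, which engulf lipoproteins and dead cells and return the cholesterol to lipoprotein particles. CD36 is a surface receptor for long-chain fatty acids and oxidized lipoproteins in both cell types. APOE is the protein of lipoproteins through which receptors recognise them, and macrophages secrete it. SCD is the desaturase that makes monounsaturated fatty acids, and LIPE is hormone-sensitive lipase, which breaks down stored fat.

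The arrays labelled mandibular 2 and tibial 3 did not follow their labels for positional genes. HOXA7, a homeobox gene of the trunk and limbs, measured 5.26, 8.40 and 5.23 on the arrays labelled mandibular 1 to 3, against 8.01, 7.92 and 5.89 on those labelled tibial 1 to 3. ALX1, which acts in the mesenchyme of the developing face, measured 8.08, 3.86 and 7.44 on the mandibular arrays, against 3.90, 3.54 and 7.97 on the tibial arrays. Both genes were chosen after their values were seen. Results below are therefore given with all 6 arrays and without these 2, and group names refer to the labels. Array medians lay between 5.63 and 5.71, and 3 arrays a site limit the precision of all that follows. The labels call the samples biological replicates, but cultures of both sites may come from the same animal, and the tests treat all 6 as independent. Of 17 measured stromal markers, 12 were in the upper quartile of every array, with COL1A1, a chain of type I collagen, at 13.24 to 13.49 and THY1, a surface protein of stromal cells, at 10.50 to 10.70, while CXCL12, a chemokine of marrow stroma, was below every array median at 4.14 to 5.06.

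No probe set passed the test between the labelled sites, and none of the 5 genes did. In limma 0 of 27558 probe sets had an adjusted p below 0.05 (0% called), with 836 at an unadjusted p below 0.05 (3.03%). The unmoderated fit also called 0 probe sets, with 848 at an unadjusted p below 0.05. CD36, APOE, PPARG and SCD had lower mean levels in the mandibular cultures, and LIPE had a higher one. Only LIPE had 3 mandibular values that did not overlap with the 3 tibial values, a pattern found in either direction for 6.43% of named genes.

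**Figure D1:**
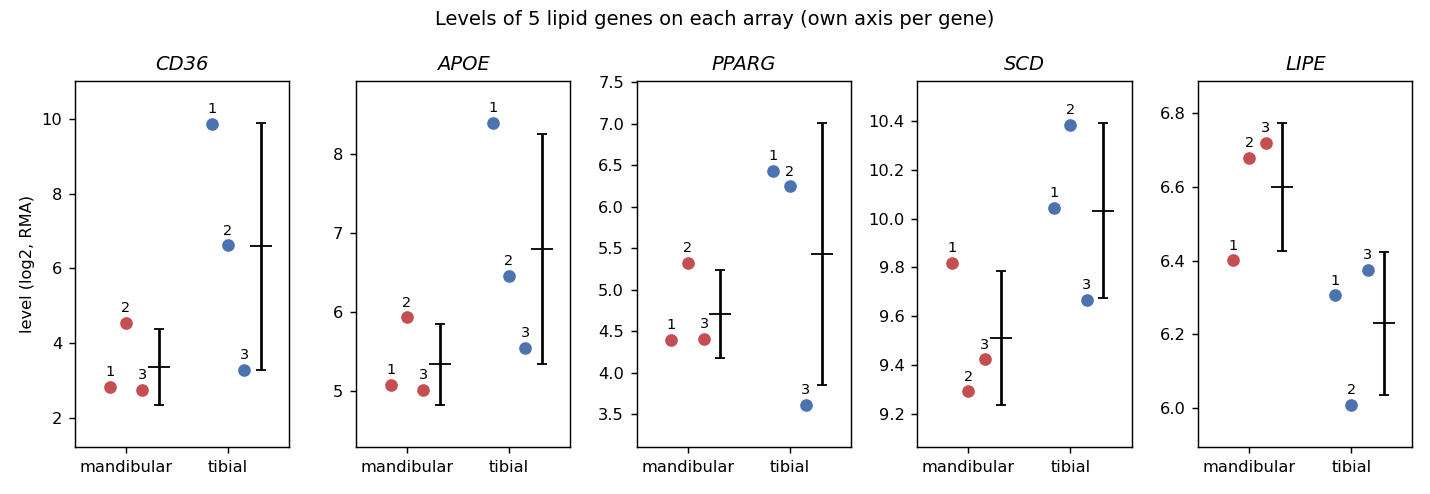
Log2 level of each gene (vertical axis, scaled separately for each gene) in the 3 cultures labelled mandibular (red) and the 3 labelled tibial (blue). Numbers beside the points are the replicate numbers and the black bars are mean ± SD. CD36 and APOE reach their highest levels, 9.87 and 8.40, on tibial 1, while the LIPE values of the sites do not overlap.

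CD36, the fatty acid and scavenger receptor, had the widest spread of the 5 genes. It measured 2.82, 4.55 and 2.74 in mandibular cultures 1 to 3, against 9.87, 6.61 and 3.27 in tibial cultures 1 to 3. Tibial 1 and tibial 2 stood above all other arrays, and tibial 3 lay among the mandibular values. The levels on mandibular 1, mandibular 3 and tibial 3 were below the lower quartile of their arrays. Such levels are taken here as near background, without a detection call. Over the 6 arrays the measured values of CD36 spanned 7.13 log2 units, and 1 of the named genes had a wider span, the matrix gene POSTN. The measured values spanned 1.81 log2 units in mandibular and 6.60 in tibial cultures, and the low end of each span is a level below that quartile. The mean was 3.37 ± 1.02 in mandibular and 6.59 ± 3.30 in tibial cultures (SD, n = 3 each). The difference was -3.22 (SE 1.55), with a 95% confidence interval from -6.92 to 0.48, and 2 named genes, P2RY12 and SLA-DRA, had one larger in size. POSTN, P2RY12 and SLA-DRA were chosen after their values were seen. It did not pass the test (limma adjusted p = 0.9995), and the two-sided exact permutation test gave p = 0.2, where 0.1 is the smallest p that 3 arrays against 3 allow. In bulk samples, fewer cells of a type and less RNA per cell cannot be told apart.

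APOE, the apolipoprotein, was arranged over the arrays in the same order as CD36. It measured 5.07, 5.93 and 5.01 in mandibular cultures 1 to 3, against 8.40, 6.46 and 5.54 in tibial cultures 1 to 3. Tibial 1 was far above the rest, tibial 2 followed, and mandibular 2 exceeded tibial 3, so the groups overlapped. The mean was 5.34 ± 0.51 in mandibular and 6.80 ± 1.46 in tibial cultures (SD, n = 3 each). The difference was -1.46 (SE 0.70), with a 95% confidence interval from -3.13 to 0.21, and did not pass (limma adjusted p = 0.9995; exact permutation p = 0.2). APOE spanned 0.92 log2 units in mandibular and 2.86 in tibial cultures. For both CD36 and APOE the site difference was no larger in size than about 1 SD of the tibial cultures.

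PPARG, the adipogenic nuclear receptor, had both its highest and its lowest level in tibial cultures. It measured 4.40, 5.32 and 4.41 in mandibular cultures 1 to 3, against 6.43, 6.25 and 3.61 in tibial cultures 1 to 3. Tibial 1 and tibial 2 were nearly level with each other, mandibular 2 came next, and tibial 3 was below every mandibular culture. The level on tibial 3 was under the lower quartile of that array. The mean was 4.71 ± 0.53 in mandibular and 5.43 ± 1.58 in tibial cultures (SD, n = 3 each). The difference was -0.72 (SE 0.75), with a 95% confidence interval from -2.51 to 1.07 (limma adjusted p = 0.9995; exact permutation p = 0.4).

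SCD, the desaturase, varied far less. It measured 9.82, 9.29 and 9.42 in mandibular cultures 1 to 3, against 10.04, 10.38 and 9.67 in tibial cultures 1 to 3. The groups overlapped only because mandibular 1 exceeded tibial 3. The mean was 9.51 ± 0.27 in mandibular and 10.03 ± 0.36 in tibial cultures (SD, n = 3 each). The difference was -0.52 (SE 0.22), or 1.43-fold higher in tibial cultures, with a 95% confidence interval from -1.05 to 0.02 (limma adjusted p = 0.9995; exact permutation p = 0.2). Over the 6 arrays SCD spanned 1.09 log2 units, and 12.8% of named genes had a wider span.

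LIPE, the hormone-sensitive lipase, alone of the 5 had higher mean levels in mandibular cultures. It measured 6.40, 6.68 and 6.72 in mandibular cultures 1 to 3, against 6.31, 6.01 and 6.37 in tibial cultures 1 to 3. The gap between the lowest mandibular value, on mandibular 1, and the highest tibial value, on tibial 3, was small. The mean was 6.60 ± 0.17 in mandibular and 6.23 ± 0.19 in tibial cultures (SD, n = 3 each). The difference was 0.37 (SE 0.15), or 1.29-fold, with a 95% confidence interval from 0.0048 to 0.73. The exact permutation test gave p = 0.1, its smallest possible value, and the gene did not pass in limma (adjusted p = 0.9995, unadjusted p = 0.0478). Without overlap and with higher mandibular levels were 3.12% of named genes, so the arrangement of LIPE is one that many genes share. LIPE spanned 0.71 log2 units over the 6 arrays, and 28.3% of named genes had a wider span.

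Leaving out single arrays kept the direction of all 5 differences, and it moved those of CD36, APOE and PPARG most. Without tibial 1 the differences of CD36, APOE and PPARG were -1.58, -0.66 and -0.22, and without tibial 2 that of PPARG was -0.31. Without tibial 3 they were -4.87 for CD36, -2.09 for APOE and -1.63 for PPARG, and none passed (limma adjusted p = 0.230, 0.384 and 0.185). SCD ranged from -0.70 without tibial 3 to -0.34 without tibial 2, and LIPE from 0.26 without tibial 2 to 0.47 without mandibular 1. None of the 5 genes passed with any single array left out.

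With mandibular 2 and tibial 3 both left out, PPARG passed the test. Its remaining values were 4.40 and 4.41 in mandibular against 6.43 and 6.25 in tibial cultures, a difference of -1.94 (SE 0.17), or 3.83-fold (limma adjusted p = 0.0160). In that fit 195 of 27558 probe sets passed, 0.708%, of which 151 were lower in mandibular cultures (0.548%). CD36 differed by -5.46 (SE 0.99), APOE by -2.38 (SE 0.60), SCD by -0.59 (SE 0.22) and LIPE by 0.40 (SE 0.21), and none of these passed (limma adjusted p = 0.112, 0.230, 0.486 and 0.696). These 2 arrays were chosen with the data known, and 2 cultures a site remain. They held the highest mandibular and the lowest tibial level of CD36, APOE and PPARG, so leaving them out had to widen those differences.

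**Figure D2:**
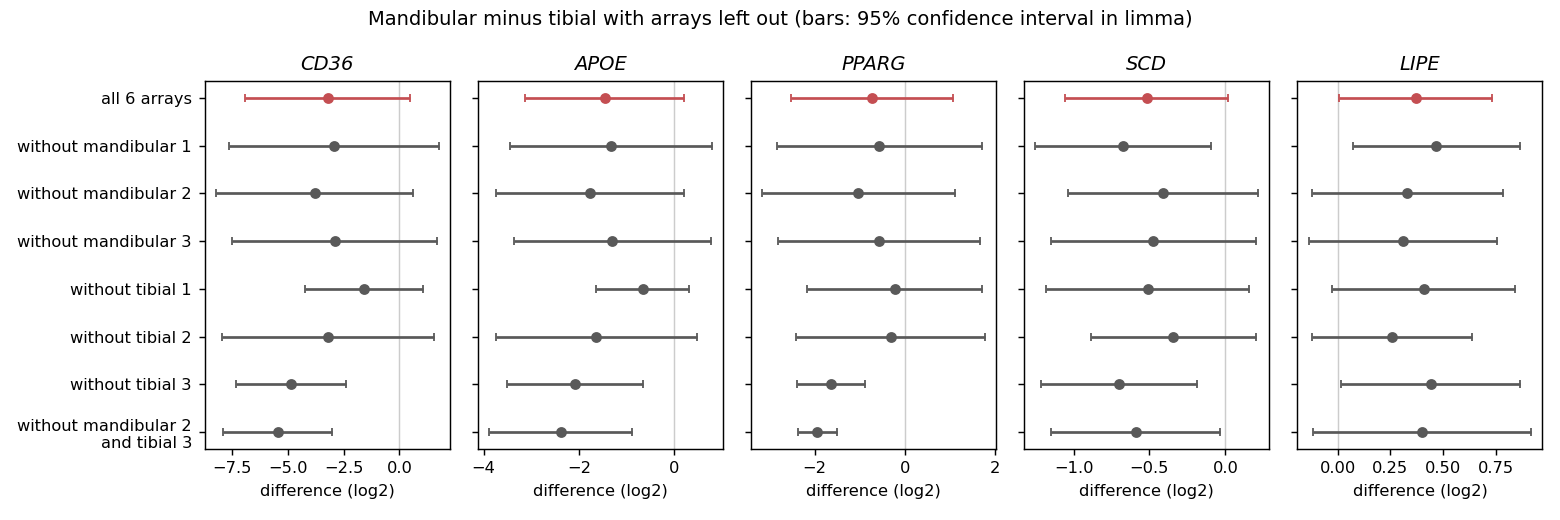
Difference of each gene, mandibular minus tibial on the log2 scale (horizontal axis, scaled separately), with all 6 arrays (red, top row) and with arrays left out (grey). Points are limma estimates and bars their 95% confidence intervals. The PPARG estimate ranges from -0.22 without tibial 1 to -1.94 without mandibular 2 and tibial 3.

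Markers of macrophages and monocytes moved with CD36 and APOE over the arrays. Of 32 listed markers 21 were measured, and all 21 had lower means in mandibular cultures, against 48.7% of all named genes. The median difference was -2.10 against 0.01 over all named genes. No marker passed in limma with all 6 arrays, and 3, CD14, ITGAM and TREM2, had no overlap between sites, where 3.31% of named genes were lower in mandibular cultures without overlap. The mean level of the list ranged from 4.66 to 5.77 in mandibular cultures and from 5.08 to 8.08 in tibial cultures. Its order from high to low was tibial 1, tibial 2, mandibular 2, tibial 3, mandibular 1 and mandibular 3, the order that CD36 and APOE also had.

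The marker genes themselves show the size of that shift. SPI1, the transcription factor that specifies myeloid cells, measured 5.42, 6.41 and 5.78 in mandibular cultures, against 9.11, 8.11 and 6.27 in tibial cultures. MRC1, the mannose receptor of macrophages, measured 3.43, 4.21 and 3.63 in mandibular cultures, against 7.29, 6.85 and 3.88 in tibial cultures. Both were high on tibial 1 and tibial 2, and MRC1 was below the lower quartile on mandibular 1, mandibular 3 and tibial 3. Without mandibular 2 and tibial 3, 14 of the 21 markers passed, all with lower mandibular levels, against 0.548% of all probe sets. The 2 arrays left out, chosen with the data known, held the highest mandibular and the lowest tibial mean of this list. The part of macrophage content in the differences of CD36, APOE and PPARG was not tested.

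PPARG, SCD and LIPE did not keep the order of the macrophage list mean, and neither did every single marker of that list. Set between its own lowest and highest level, the macrophage list stood at 100% on tibial 1, 78.9% on tibial 2, 32.5% on mandibular 2 and 12.1% on tibial 3. CD36 stood at 100%, 54.4%, 25.3% and 7.5% on the same arrays, and APOE at 100%, 42.7%, 27.2% and 15.7%. PPARG stood at 100%, 93.4%, 60.5% and 0%, so that its level on tibial 3 was below those on mandibular 1 and mandibular 3, at 27.8% and 28.2%. AIF1, a marker on the macrophage list, had the same order over the arrays as PPARG. It measured 3.95, 4.75 and 4.00 in mandibular cultures, against 6.63, 6.32 and 3.75 in tibial cultures. SCD was highest on tibial 2 and lowest on mandibular 2, and LIPE was highest on mandibular 3 and lowest on tibial 2.

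**Figure D3:**
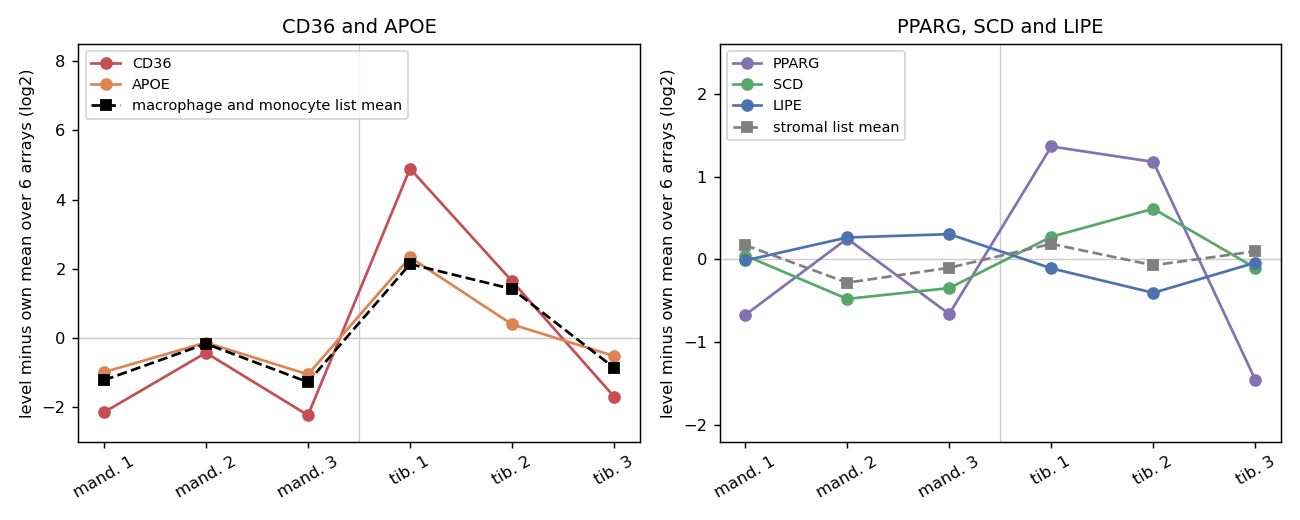
Log2 level minus the mean over the 6 arrays (vertical axis) on each array (horizontal axis). The left panel shows CD36, APOE and the mean of the macrophage and monocyte list, and the right panel, on a finer scale, shows PPARG, SCD, LIPE and the mean of the stromal list. CD36 and APOE share the order of the macrophage list mean, while PPARG is lowest on tibial 3.

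The lists of other cell types had medians near 0. The mean of the stromal list ranged from 9.69 to 10.15 in mandibular and from 9.90 to 10.16 in tibial cultures, with a median difference of -0.09 over 17 measured genes. Of these, 6 had higher and 11 lower means in mandibular cultures. The arrays spanned 1 log2 unit or more in 8 of the 17, against 14.9% of named genes. VCAM1, of this list, measured 4.28, 5.57 and 3.68 in mandibular cultures, against 9.52, 7.55 and 4.10 in tibial cultures, a difference of -2.55 (SE 1.31). Endothelial markers, of interest because endothelium also uses CD36, ranged from 4.85 to 5.27 in mandibular and from 4.85 to 5.16 in tibial cultures. The highest of these means was on mandibular 2, where FLT1 measured 8.14. The median difference was -0.08 over 10 genes. Without overlap, 1 was higher in mandibular cultures, KDR at 0.45, against 3.12% of named genes. Lower without overlap were 2, PECAM1 at -0.55 and ESAM at -0.54, against 3.31% of named genes. Tibial 1 and tibial 2 held the 2 highest levels in 4 of the 10, against 21 of the 21 macrophage markers and 9.10% of all named genes. The erythroid and megakaryocyte list had a median of 0.03 over 11 genes and the lymphocyte list one of -0.08 over 13. Many of these genes were at low levels. Below the median of every array were 5 of the 10 endothelial, 9 of the 11 erythroid and megakaryocyte and all 13 lymphocyte genes. Medians near 0 in these lists thus compare mostly low levels. Housekeeping genes had a median of -0.02 over 6 genes, of which 5 had lower means in mandibular cultures.

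Adipocyte products as a group had a median difference near 0. LEP, the hormone leptin, measured 3.49, 3.68 and 3.57 in mandibular cultures, against 3.55, 3.42 and 3.40 in tibial cultures, below the lower quartile of every array. CIDEC, a lipid droplet protein of white fat, measured 3.96, 3.90 and 4.36 in mandibular cultures, against 4.83, 3.81 and 4.05 in tibial cultures. PLIN1, the droplet coat protein of adipocytes, lay between 5.49 and 6.05 in mandibular and between 5.40 and 5.72 in tibial cultures. LEP, CIDEC and PLIN1 were chosen after their values were seen, and ADIPOQ and FABP4 were not analysed here. Of 16 measured adipocyte products 9 had higher and 7 lower means in mandibular cultures, none passed, and the median difference was 0.03. Without overlap and higher in mandibular cultures were 2 of the 16, against 3.12% of named genes. The genes named by smallest p were NNAT at 0.64 (SE 0.27), the retinol carrier RBP4 at 0.82 (SE 0.42), TUSC5 at -0.20 (SE 0.14) and the angiotensin precursor AGT at -0.23 (SE 0.21). RBP4 measured 6.59, 6.47 and 6.54 in mandibular cultures, against 5.12, 5.27 and 6.75 in tibial cultures. It was low on tibial 1 and tibial 2, where PPARG was high, and without mandibular 2 and tibial 3 it differed by 1.37 (limma adjusted p = 0.0431), where 0.16% of probe sets passed with higher mandibular levels.

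The genes of lipid uptake were the most variable of the 7 lipid lists. Of 17 measured genes 14 had lower means in mandibular cultures, against 48.7% of all named genes. None passed, and the median difference was -0.19. The median was -0.45 without tibial 3 and -0.10 without mandibular 3. The 6 arrays spanned 1 log2 unit or more in 12 of the 17, against 14.9% of all named genes. The scavenger receptor MSR1 measured 3.34, 5.39 and 3.66 in mandibular cultures, against 9.51, 7.50 and 4.09 in tibial cultures, a difference of -2.90 (SE 1.32). The oxidized LDL receptor OLR1 measured 3.13, 3.61 and 3.00 in mandibular cultures, against 8.30, 5.47 and 3.34 in tibial cultures, a difference of -2.45 (SE 1.13). The levels of OLR1 on all mandibular arrays and tibial 3, and of MSR1 on mandibular 1 and mandibular 3, were below the lower quartile of their arrays. Both differences are thus set against levels taken as near background. The scavenger receptor STAB1 differed by -1.33 (SE 0.60). MSR1, OLR1 and STAB1, like CD36, had their highest level on tibial 1 and the next on tibial 2, and MSR1 is also on the macrophage list.

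LPL and FABP5, chosen after their values were seen, were also high on mandibular 2. LPL, the lipase that frees fatty acids from lipoproteins and is made by adipocytes and macrophages, measured 4.62, 9.45 and 4.61 in mandibular cultures, against 10.99, 9.07 and 4.42 in tibial cultures. Its level on mandibular 2 was above that on tibial 2, and the difference between sites was -1.93 (SE 1.96). FABP5, an intracellular fatty acid carrier, measured 6.12, 8.07 and 5.96 in mandibular cultures, against 10.29, 9.04 and 6.39 in tibial cultures. Without mandibular 2 and tibial 3, MSR1, LPL and FABP5 passed (limma adjusted p = 0.0446, 0.0314 and 0.0330), 3 of the 17 genes against 0.548% of all probe sets lower in mandibular cultures.

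Apolipoprotein and cholesterol efflux genes leaned the same way as APOE. Of 14 measured genes 11 had lower means in mandibular cultures, against 48.7% of all named genes. None passed, and the median difference was -0.37, or -0.17 without tibial 1. NCEH1, which hydrolyses cholesterol esters, had no overlap, at 9.14, 8.91 and 9.30 in mandibular against 9.90, 9.40 and 9.40 in tibial cultures, a difference of -0.45 (SE 0.18). It was 1 of the 14 without overlap, against 3.31% of named genes lower in mandibular cultures without overlap. MYLIP, a ligase that degrades the LDL receptor, differed by -0.47 (SE 0.23), and NR1H3, the liver X receptor that drives efflux genes, by -0.39 (SE 0.20). On tibial 1 and tibial 2 were the highest levels of 7 of the 14 genes, against 9.10% of all named genes. Without mandibular 2 and tibial 3 none of the 14 passed.

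The adipogenic regulators did not lean as a group. Of 22 measured genes 10 had higher and 12 lower means in mandibular cultures, none passed, and the median difference was -0.04. CEBPA, which works with PPARG to hold the adipocyte state, measured 6.19, 6.10 and 5.87 in mandibular cultures, against 7.19, 6.92 and 5.97 in tibial cultures, a difference of -0.64 (SE 0.31). EBF1, an early B cell factor that also acts in adipogenesis, measured 8.35, 9.23 and 8.59 in mandibular cultures, against 9.79, 9.84 and 8.47 in tibial cultures, a difference of -0.64 (SE 0.42). CEBPA and EBF1 were highest on tibial 1 and tibial 2, as PPARG was, and in both tibial 3 lay within the mandibular range. The 2 highest levels lay on tibial 1 and tibial 2 in 4 of the 22 genes, against 9.10% of all named genes. KLF5, chosen after its values were seen, was instead lowest on these arrays. It measured 6.57, 5.88 and 7.35 in mandibular cultures, against 4.90, 5.82 and 7.91 in tibial cultures. GATA2, which restrains adipogenesis, differed by 0.19 (SE 0.13) without overlap, 1 of the 22 against 3.12% of named genes in that direction. LMNA, the gene of nuclear lamins A and C, differed by 0.34 (SE 0.25). Without mandibular 2 and tibial 3 PPARG alone of the 22 passed, with EBF1 at -1.35 just outside (limma adjusted p = 0.0501).

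Fatty acid and triglyceride synthesis genes did not lean as a group. Of 20 measured genes 8 had higher and 12 lower means in mandibular cultures, none passed, and the median difference was -0.03. FADS1, the desaturase of polyunsaturated fatty acids, measured 10.03, 9.44 and 9.51 in mandibular cultures, against 10.30, 10.24 and 10.01 in tibial cultures, a difference of -0.52 (SE 0.19). SCD5, the second stearoyl-CoA desaturase, ran opposite to SCD, at 7.16, 7.34 and 7.18 in mandibular against 6.84, 6.37 and 6.98 in tibial cultures. Its difference was 0.50 (SE 0.18), without overlap. Of the 20 genes 2 were higher in mandibular cultures without overlap, against 3.12% of named genes. MOGAT1, an enzyme of triglyceride assembly, differed by 0.46 (SE 0.25).

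Lipolysis, lipid droplet and oxidation genes were split in direction. Of 19 measured lipolysis and lipid droplet genes 9 had higher and 10 lower means in mandibular cultures, with a median of -0.03. LIPE alone of the 19 had no overlap, against 6.43% of named genes in either direction. Over all 7 lipid lists, 6 of 121 measured genes were higher and 2 lower in mandibular cultures without overlap. The shares of all named genes were 3.12% and 3.31%. PRKAR2B, a regulatory subunit of the kinase that activates LIPE, differed by -0.58 (SE 0.26), FITM1 by -0.20 (SE 0.13) and the droplet coat gene PLIN2 by -0.25 (SE 0.19). Of 16 fatty acid oxidation genes 10 had higher and 6 lower means, with a median of 0.05. PPARA, the nuclear receptor that drives oxidation, differed by -0.29 (SE 0.12) without overlap, as did 3.31% of named genes in that direction. ECHS1 differed by -0.44 (SE 0.20) and CPT1A, the gate of fatty acid entry into mitochondria, by 0.39 (SE 0.22). UCP2, a mitochondrial carrier also found in macrophages, measured 4.66, 5.24 and 5.24 in mandibular cultures, against 7.16, 7.22 and 4.68 in tibial cultures. None of the genes of either list passed with all 6 arrays, and UCP2 passed without mandibular 2 and tibial 3, at -2.24 (limma adjusted p = 0.0276).

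**Figure D4:**
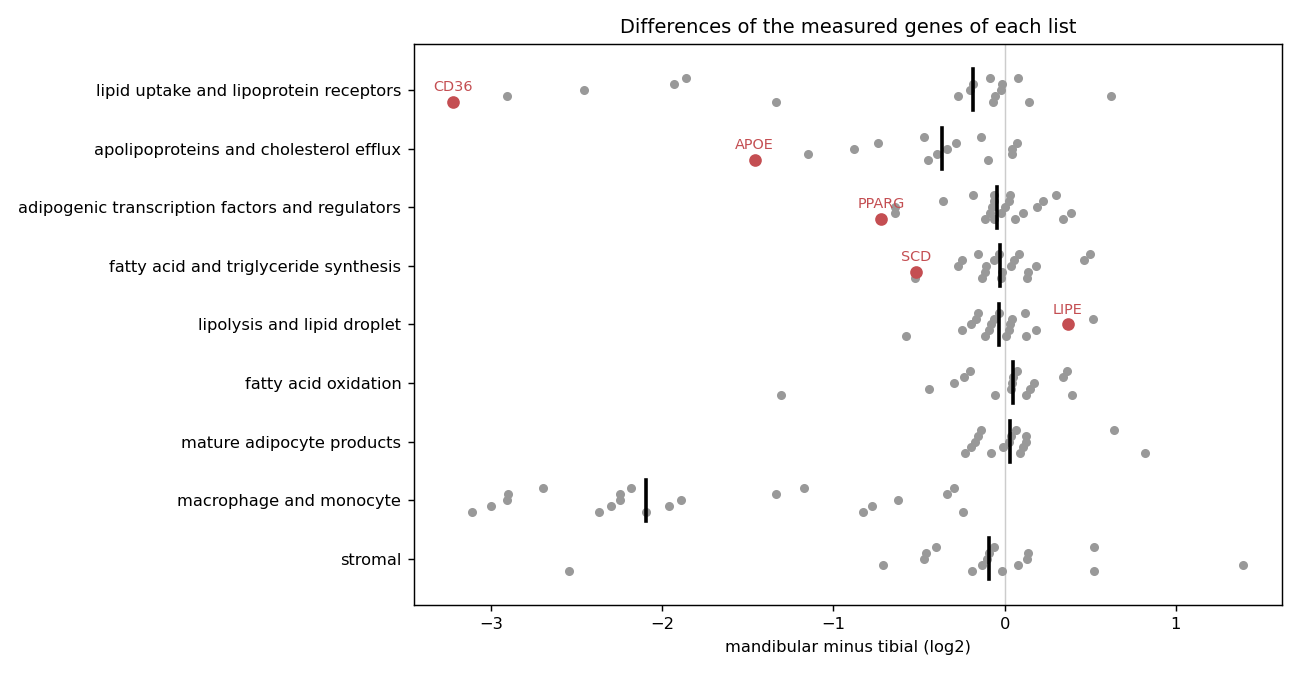
Difference of each measured gene, mandibular minus tibial on the log2 scale (horizontal axis), by list (rows). Each grey point is a gene, the 5 genes described here are red, and black bars are list medians. The medians of the 7 lipid lists lie between -0.37 and 0.05, and that of the macrophage and monocyte list is -2.10.

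Profiles close to each gene were looked for among 1622 other named genes that spanned 1 log2 unit or more, by the root mean square difference between mean-centred levels over the 6 arrays. For CD36 the closest were EDNRB, an endothelin receptor gene, at 0.35, MSR1 at 0.45, LCP1, an actin-bundling protein of leukocytes, at 0.49, and the adhesion molecule gene VCAM1 at 0.55. VCAM1 is on the stromal list and MSR1 on the macrophage list. For APOE they were UNC93A at 0.09, the immune checkpoint ligand gene PDCD1LG2 at 0.18, ARHGAP25 at 0.21 and PIK3AP1 at 0.25. For PPARG they were CYGB, which encodes cytoglobin, at 0.23, the ubiquitin ligase gene RNF128 at 0.24, the prostaglandin F receptor gene PTGFR at 0.26, and RASSF2 at 0.28. CYGB measured 8.67, 9.90 and 8.65 in mandibular cultures, against 10.91, 10.82 and 7.54 in tibial cultures, with its lowest level on tibial 3 as for PPARG. For SCD they were PTGER3 at 0.10, AKAP5 at 0.12, CCL24 at 0.12 and PPIF at 0.14. LIPE spanned less than 1 log2 unit, and no profiles were matched to it.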

How the data were processed

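The authors deposited log2 levels for 27558 probe sets on 6 arrays. Per the submitters' processing notes, they used RMA with the Affymetrix Expression Console, and the Transcriptome Analysis Console 3.0. RMA brings the arrays' distributions close to each other, so levels are relative. Its settings and the genome build were not given in the sources used here. GEO's platform annotation paired 13157 probe sets with 1 symbol, 523 with several and 13878 with none. Without placeholder symbols it named 10872 genes, each represented by its probe set with the highest mean. The site contrast was fitted with lmFit and eBayes of limma 3.58.1 (R 4.3.3), two-sided. P-values were adjusted by Benjamini and Hochberg's method over the whole array, with 0.05 as the threshold. The fit was also run on simulated independent values, which do not copy shared animals or differing cell content. Alternatives were single omissions, the replicate number as a block, centring, quantile normalization, a filter at a mean level of 5, trend and robust fitting, no moderation and array weights. The 5 genes, the lists and the tests were chosen with earlier results of these data known. The genes named are the 5, up to 4 of each lipid list by smallest p, and the 4 closest profiles. Of the marker lists, examples were chosen after their values were seen, as were other genes where stated. Lists are described by counts and medians, with no test. No label ties a replicate number to a pig, so the main fit did not pair the samples.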

Additional observations from a re-analysis of the deposited data

How the results depend on the processing

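All 69 values of the 5 genes under the alternatives kept their direction. Blocking, the level filter, trend and robust fitting and no moderation cannot change a difference in this balanced design. Their directions were thus fixed in advance. Only 1 value passed the threshold, PPARG at -1.94 without mandibular 2 and tibial 3, an omission chosen after the data were seen. With 1 array left out, the differences ranged from -4.87 to -1.58 for CD36, -2.09 to -0.66 for APOE, -1.63 to -0.22 for PPARG, -0.70 to -0.34 for SCD and 0.26 to 0.47 for LIPE, and the number of probe sets called ranged from 0 to 2. It was 195 without mandibular 2 and tibial 3. The cause was not tested. List medians ranged with 1 array left out from -0.069 to 0.014 for lipolysis and lipid droplet genes, -0.019 to 0.074 for oxidation genes and -0.017 to 0.095 for adipocyte products. Without mandibular 2 and tibial 3, lipolysis and lipid droplet genes had a median of -0.11 and adipocyte products one of -0.027. These medians, and those of adipogenic regulators and synthesis genes, lay so near 0 that single omissions turned their sign. The filter at a mean level of 5 removed CD36, so it gave no value for that gene. The mean over all probe sets of a gene was not run, since each of the 5 has 1. With the replicate number as a block, 0 probe sets were called. The balanced design makes the blocked differences equal to those of the main fit. They were -3.22 for CD36, -1.46 for APOE, -0.72 for PPARG, -0.52 for SCD and 0.37 for LIPE. Deviations from the site means correlated at -0.03, 0.21 and 0.47 between samples of the same number, and not every sample correlated best with its own number. With so few arrays a site, these correlations cannot show whether equal numbers share a pig. Levels near background limit the fold of CD36.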
